A study of Zea mays with 10 samples.

Results

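The genes described here act in the synthesis and perception of gibberellin (GA) and ethylene in maize. They are an1 (GRMZM2G081554, the match of Arabidopsis GA1), d3 (GRMZM2G093195, the match of KAO2), MTO3 (GRMZM2G117198), ACS6 (GRMZM2G164405), ACO31 (GRMZM2G072529) and etr2 (GRMZM2G420801). The first 4 were matched to probe sets by gene model in the study's functional annotation, and ACO31 and etr2 by the gene symbol of the array's annotation. Of 17621 probe sets for maize transcripts, 7 belong to the 6 genes, since etr2 has 2. MTO3 and ACS6 carry the names of their Arabidopsis matches. etr2 encodes a receptor and takes no part in synthesis. an1, d3, MTO3 and ACS6 had been listed by the study as cycling genes on the same hybridizations, so their profiles here are no independent evidence of a rhythm.

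The samples were the aerial tissue of seedlings of the B73 inbred, which were grown in photocycles of 12 h light and 12 h dark and then kept in constant light (LL). Transcript levels were measured on Affymetrix maize arrays every 4 h, from ZT0 to ZT8 and again from ZT20 to ZT44, where ZT counts hours from the dawn of the first day in LL. Each time point was covered by 1 array, which held RNA from 3 pooled replicates of 5 seedlings each, and the time points ZT12 and ZT16 are not analysed here. All plants had the same genotype and treatment, and the arrays differed in the time of harvest and so in light history. By the study's methods harvest began at dawn on transfer to LL, so ZT0 plants came from 12 h of darkness. Plants of ZT24 had spent the subjective night in light. Between ZT0 and the later arrays, time and light history cannot be told apart. The study asked which transcripts keep a daily rhythm when the light no longer changes. Because whole shoots were pooled, a lower signal from fewer cells of a type cannot be told apart from less RNA per cell.

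As background, GAs are diterpenoid hormones that promote stem elongation, and their synthesis starts in the plastid, where ent-copalyl diphosphate synthase makes the first committed intermediate from geranylgeranyl diphosphate. Ent-kaurene oxidase and ent-kaurenoic acid oxidase, both cytochrome P450 enzymes, then lead to the first GA, and soluble 2-oxoglutarate-dependent dioxygenases convert it into active and inactive forms. Ethylene is a gas made from methionine by way of S-adenosylmethionine (SAM), which ACC synthase turns into 1-aminocyclopropane-1-carboxylic acid (ACC) and ACC oxidase turns into ethylene. Ethylene receptors repress the response until ethylene binds them, and in Arabidopsis they act through the kinase CTR1.

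Signals are given after quantile normalization of the arrays, in the arbitrary units of the scanner software, and can be compared between arrays for a probe set but not between probe sets. Array medians before normalization lay between 187.6 and 213.5, and between 68.9% and 70.0% of probe sets reached a signal of 50. In all, 12512 probe sets reached that signal on at least 3 arrays and were tested. They included 1 probe set for each of the 6 genes, and the second etr2 probe set did not pass. Of 13 probe sets for leaf photosynthesis genes, 12 passed, with median signals of 369 or more.

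Of the GA genes, an1 (maize anther ear1) encodes ent-copalyl diphosphate synthase. Its signal was 84.5, 134.0, 109.8, 92.7, 104.9, 124.0, 140.8, 113.4, 88.3 and 101.4 from ZT0 to ZT44. It was highest in the subjective day of both days, at ZT4 and at ZT32, and lowest at ZT0, ZT40 and ZT20. A 24-h curve fitted with limma together with a linear change over time peaked 5.75 ± 0.99 h after subjective dawn (SE), with a fitted peak-to-trough difference of 0.67 ± 0.18 in log2, or 1.59-fold. The p of that curve was 0.0070 before adjustment and 0.328 after Benjamini-Hochberg adjustment over all probe sets tested, so the curve did not pass the threshold of 0.05. With the arrays ranked by signal, no step between neighbours in the order exceeded the scatter around the curve, a residual SD of 0.16 in log2.

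The other GA gene, d3 (maize dwarf plant3), encodes ent-kaurenoic acid oxidase. Its signal was 130.8, 127.5, 126.7, 165.8, 109.2, 113.1, 113.6, 112.2, 150.8 and 131.4 from ZT0 to ZT44. The highest levels were in the subjective night, at ZT20 and ZT40, and the levels between ZT24 and ZT36 differed by no more than 4.4 units. The fitted curve peaked at 16.8 ± 1.1 h, with a difference of 0.53 ± 0.19 in log2 (unadjusted p = 0.040, limma adjusted p = 0.424). On the first day this time lies between ZT8 and ZT20, where no array was analysed, and on the second day it lies next to ZT40, the second highest array. With no linear change in the model the difference was 0.34 (unadjusted p = 0.142). Only the step below ZT40 in the ranked order exceeded the residual SD of 0.16. The an1 and d3 peaks lay on opposite sides of the day, 11.1 h apart.

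**Figure D1:**
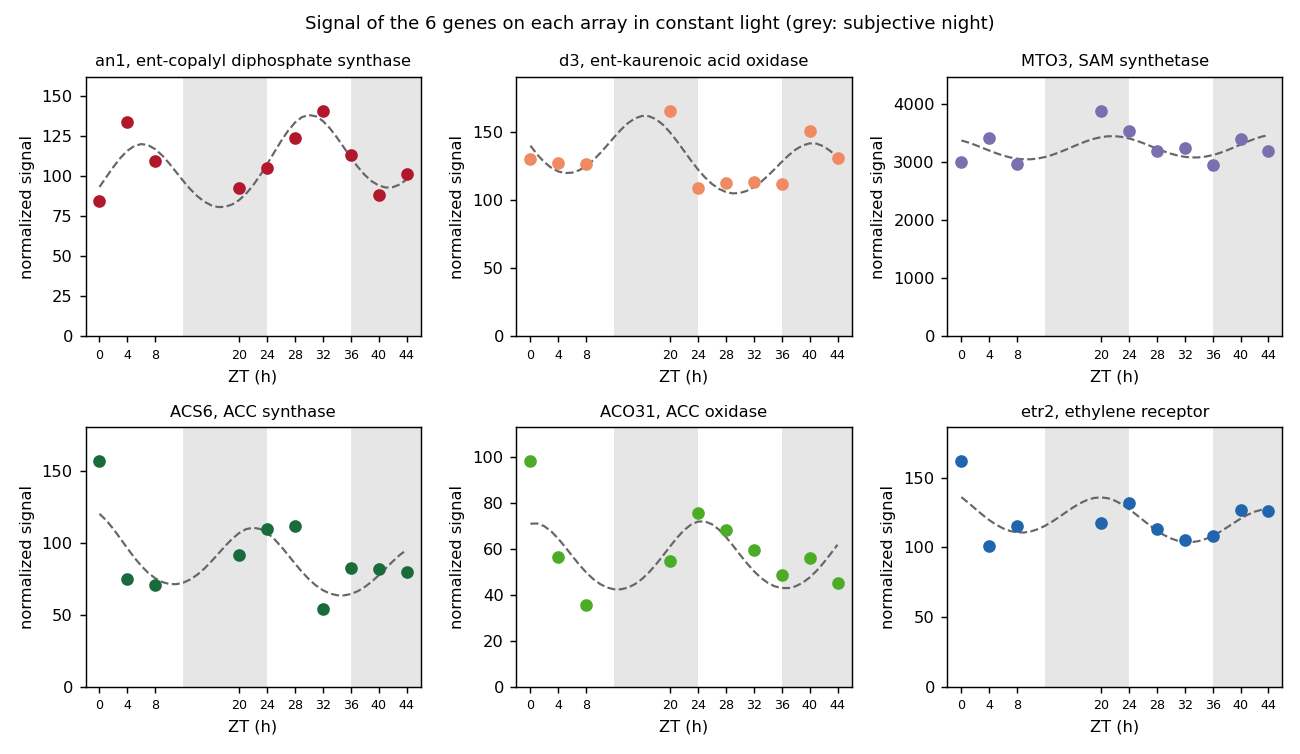
Normalized signal (vertical axis, from 0) against ZT in h for the 6 genes, with 1 point per array, the fitted 24-h curve and linear change as a dashed line, and subjective night in grey. an1 was highest at ZT4 and ZT32, d3 at ZT20 and ZT40, and ACS6, ACO31 and etr2 at ZT0.

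Of the ethylene genes, MTO3 encodes SAM synthetase, which makes the methyl donor SAM for many reactions besides ethylene synthesis. Its signal was 3004, 3419, 2965, 3886, 3534, 3193, 3255, 2949, 3399 and 3200 from ZT0 to ZT44. It varied least of the 6 genes, with a highest level at ZT20 that was 1.32-fold the lowest at ZT36. Its fitted curve had a difference of 0.17 ± 0.10 in log2 (unadjusted p = 0.30, limma adjusted p = 0.698). The step from ZT20 down to ZT24 was the only one that exceeded its residual SD of 0.12.

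ACS6 encodes ACC synthase, the enzyme commonly taken as rate-limiting for ethylene. Its signal was 156.8, 74.8, 70.7, 91.9, 109.8, 111.7, 54.0, 82.5, 82.0 and 79.9 from ZT0 to ZT44. It was highest at ZT0, 1.4-fold above the next array, ZT28, and lowest at ZT32, and these were the steps in its order that exceeded the residual SD of 0.31. ZT28 and ZT24 followed ZT0 in the order, while ZT4, the counterpart of ZT28 on the first day, was among the lowest. The fitted curve peaked at 22.3 ± 2.0 h with a difference of 0.72 ± 0.29 in log2 (unadjusted p = 0.074, limma adjusted p = 0.490).

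ACO31 encodes an ACC oxidase, which carries out the last step. Its signal was 98.1, 56.5, 35.7, 54.9, 75.7, 68.3, 59.4, 48.6, 56.2 and 45.3 from ZT0 to ZT44. It was highest at ZT0, then at ZT24 and ZT28, and lowest at ZT8, where it lay below 50, as it also did at ZT36 and ZT44. The steps below ZT0 and above ZT8 exceeded the residual SD of 0.33, which was the largest of the 6 genes. The fitted curve peaked at 0.52 ± 1.7 h with a difference of 0.76 ± 0.39 in log2 (unadjusted p = 0.159, limma adjusted p = 0.587).

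The receptor gene etr2 had signals of 161.9, 100.9, 115.6, 117.3, 132.2, 113.6, 105.3, 108.1, 127.3 and 126.5 from ZT0 to ZT44. It was highest at ZT0 and next at ZT24, followed by ZT40 and ZT44, and lowest at ZT4. Only the step below ZT0 exceeded the residual SD of 0.18. The fitted curve peaked at 20.2 ± 2.5 h with a difference of 0.34 ± 0.15 in log2 (unadjusted p = 0.132, limma adjusted p = 0.563). The second etr2 probe set gave signals between 1.00 and 10.9, with its highest value also at ZT0, and was too dim to be tested.

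In the test of a 24-h curve, 0 of the 6 genes passed at an adjusted p of 0.05, as did 0% of all 12512 probe sets, for which the lowest adjusted p was 0.223. Before adjustment, 2 of the 6 were at or under 0.05, an1 and d3, against 11.1% of all probe sets. The median of the fitted differences was 0.60 in log2 for the 6 genes and 0.23 for all probe sets tested. The 5 genes other than MTO3 had median signals between 50 and 150, where fitted differences were larger in general, with a median of 0.30 over 2552 probe sets, and all 5 lay above that median. However, an1, d3, ACS6 and MTO3 had been listed as cycling by the study on the same hybridizations. These comparisons with all probe sets are therefore no independent evidence of a rhythm. Within the alternatives tried, the adjusted p of the 24-h test stayed between 0.273 and 0.942 for an1 and between 0.351 and 0.942 for d3. With ZT20 left out, the unadjusted p of d3 was 0.189.

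**Figure D2:**
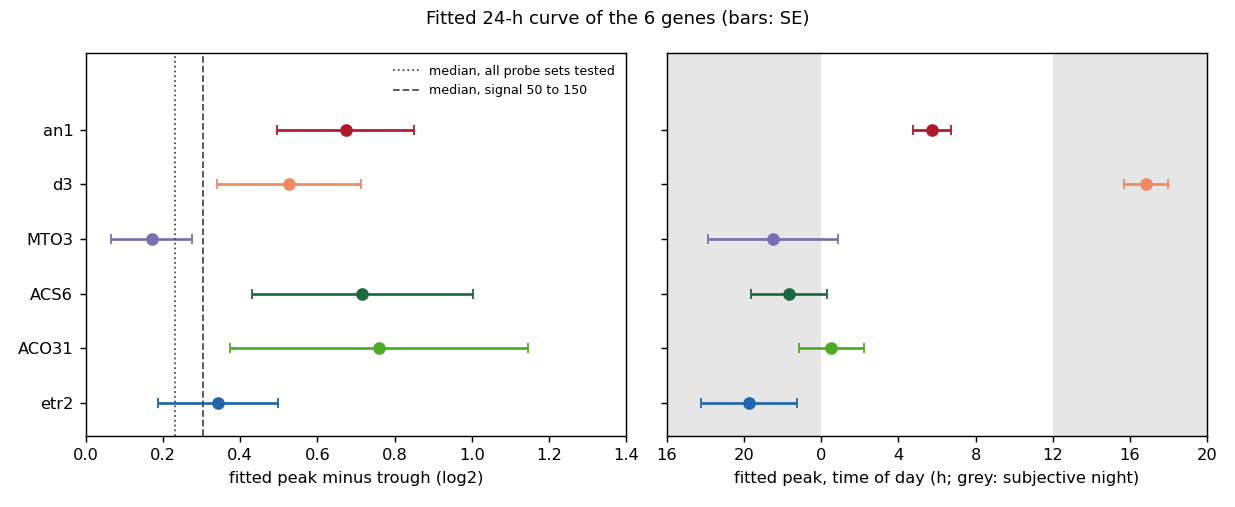
Left, fitted peak-to-trough difference in log2 with its SE for the 6 genes, with the median over all probe sets tested (dotted, 0.23) and over those with a median signal of 50 to 150 (dashed, 0.30). Right, fitted time of the peak with its SE on a 24-h axis, with subjective night in grey: an1 peaked in the day, d3 in the night, and the ethylene genes between 20.2 h and 0.52 h.

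The 4 arrays of subjective night (ZT20, ZT36, ZT40 and ZT44) were also set against the 6 of subjective day (ZT0, ZT4, ZT8, ZT24, ZT28 and ZT32), with time points standing in for replicates. For d3, the night arrays gave 165.8, 112.2, 150.8 and 131.4, against 130.8, 127.5, 126.7, 109.2, 113.1 and 113.6 in the day. At 3 of the 4 night arrays d3 was above every day array, and ZT36, at subjective dusk, was among the lowest. The difference of night minus day was 0.21 ± 0.12 in log2 (SE, limma adjusted p = 0.376). For an1 the geometric means were 98.5 at night and 114.7 in the day, a difference of -0.22 ± 0.15 (limma adjusted p = 0.442), and the groups overlapped, with ZT0 of the day the lowest of all arrays and ZT36 of the night above ZT8 and ZT24. The other 4 genes differed by between -0.30 (ACO31) and 0.05 (MTO3). Of the 6 genes, 0 passed at an adjusted p of 0.05, as did 0% of all probe sets, 0 passed before adjustment, against 16% of all probe sets, and 0 had night and day arrays that did not overlap, against 3.81%. Without the arrays at dawn and dusk (ZT0, ZT24 and ZT36) the difference was -0.43 for an1 (unadjusted p = 0.0077, limma adjusted p = 0.405) and 0.31 for d3 (unadjusted p = 0.029, adjusted p = 0.414). The arrays left out include ZT0, the lowest for an1, and ZT36, the lowest night array for d3. Neither gene passed after adjustment. The sign of the night minus day difference for ACS6, MTO3 and etr2 was not stable to the normalization or to the arrays used.

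A linear change over the time in LL passed the adjusted test in 0 of the 6 genes, against 6.55% of all probe sets, and in 0 before adjustment, against 27.5%. The rates were 0.20 ± 0.11 per 24 h in log2 for an1 (limma adjusted p = 0.259) and -0.19 ± 0.11 for d3 (adjusted p = 0.271). For the ethylene genes they lay between -0.17 (ACS6) and 0.02 (ACO31).

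The ZT0 array carried the highest level of 3 of the 6 genes, ACS6, ACO31 and etr2, and the lowest level of an1. Among all probe sets tested, 19% were highest and 20.1% lowest on that array, and the next was ZT8 with 13.7% highest and 13.7% lowest. The departure of ZT0 from the curve and linear change was tested with an indicator for that array, so that the curve rests on the other 9. ACO31 lay 0.88 ± 0.38 above its curve in log2 (SE, unadjusted p = 0.044, limma adjusted p = 0.390), or 1.84-fold. etr2 lay 0.47 ± 0.20 above (unadjusted p = 0.044, adjusted p = 0.388) and ACS6 0.72 ± 0.37 above (unadjusted p = 0.080, adjusted p = 0.484). MTO3 lay below its curve, by -0.32 ± 0.13 (unadjusted p = 0.041, adjusted p = 0.380). The departures of an1 and d3, at -0.27 and -0.19, were about the size of their SE. After adjustment 0 of the 6 genes passed, against 0.783% of all probe sets, and before adjustment 3 did, against 12.2%.

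With ZT0 left out, the fitted 24-h difference of etr2 was 0.21 in log2 in place of 0.34, and that of ACS6 0.58 in place of 0.72. For ACO31 it was 0.73 without ZT0, with the peak at 1.81 h, and 0.36 without ZT8 (unadjusted p = 0.64), in place of 0.76. At the other arrays, ACO31 at ZT8 lay -0.86 ± 0.38 from its curve (unadjusted p = 0.047, limma adjusted p = 0.744) and MTO3 at ZT20 0.28 ± 0.12 (unadjusted p = 0.044, adjusted p = 0.376). At these arrays 0% of all probe sets passed after adjustment, and 6.64% (ZT8) and 12.8% (ZT20) did before.

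The genes that share an enzyme step with the 6 were read beside them. For ACC oxidase, a putative gene named by its Arabidopsis and rice matches (GRMZM2G166639) gave 1021, 536.1, 392.3, 429.3, 388.6, 514.9, 527.4, 369.4, 374.1 and 402.9 from ZT0 to ZT44. The ZT0 array stood alone, 1.90-fold above the next, and the other 9 lay between 369.4 and 536.1. Its departure at ZT0 was 1.21 ± 0.22 in log2, or 2.31-fold, with a limma adjusted p of 0.0458, and with no filter on low signals the adjusted p was 0.0575. ACO20 (GRMZM2G126732), a further ACC oxidase, lay between 360.9 and 557.2, with its highest level at ZT44, and did not pass (ZT0 departure 0.34 ± 0.24, limma adjusted p = 0.642). Of the 3 ACC oxidase probe sets, 1 passed at ZT0 after adjustment, against 0.783% of all probe sets in either direction. The second ACC synthase match (GRMZM2G040734) was dim, at 7.5 to 32.6 with its highest value at ZT0, and was not tested. Whether probe sets of such close relatives share signal was not tested.

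Upstream of SAM, methionine synthase was measured by 2 probe sets of different genes. GRMZM2G149751 lay between 2649 and 3299 and GRMZM2G112149 between 1267 and 1740. GRMZM2G112149 and MTO3 were both highest at ZT20. The 24-h curve had a limma adjusted p of 0.980 for GRMZM2G149751 and 0.517 for GRMZM2G112149. Of 8 matched probe sets for ethylene synthesis, 7 passed the filter, 0 passed the 24-h test before or after adjustment, against 11.1% and 0% of all probe sets, and 1 was higher and 0 were lower at ZT0 at an adjusted p of 0.05, against 0.783% in either direction.

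**Figure D3:**
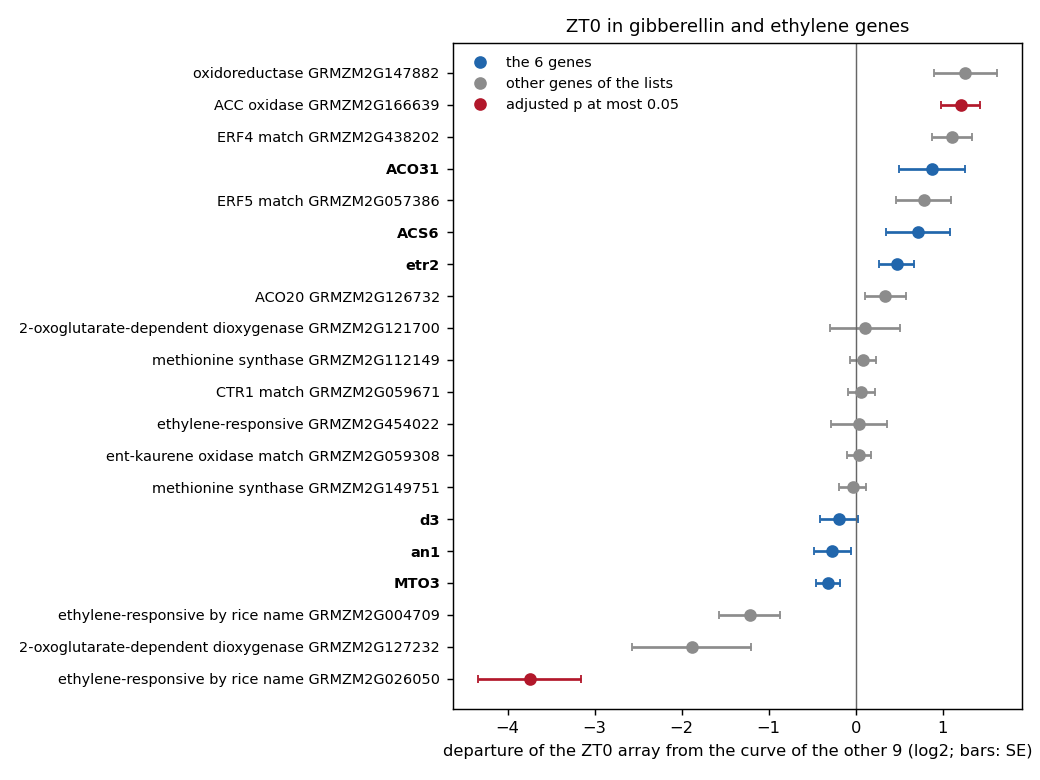
Departure of the ZT0 array from the curve and linear change of the other 9 arrays, in log2 with its SE, for the 6 genes (blue, bold names) and the other genes of the GA and ethylene lists (grey). The 2 probe sets with a limma adjusted p of at most 0.05 are red, an ACC oxidase at 1.21 and an ethylene-responsive element-binding gene at -3.75. The latter rests on a ZT0 signal of 3.1 and did not pass with 32 added to all signals.

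Downstream of the receptor, the CTR1 match (GRMZM2G059671) lay between 363.0 and 476.6 and was not highest at ZT0 (24-h difference 0.36 ± 0.12, unadjusted p = 0.026, limma adjusted p = 0.387). The 6 probe sets listed for ethylene-responsive factors were matched by annotated name alone, and their place downstream of the receptor was not tested. Of these 6, 5 passed the filter and 0 passed the 24-h test (2 before adjustment, against 11.1% of all probe sets). At ZT0, 0 were higher and 1 was lower at an adjusted p of 0.05, against 0.783% of all probe sets in either direction. The match of ERF4, a repressor of ethylene-responsive genes in Arabidopsis (GRMZM2G438202), gave 698.1 at ZT0 and between 217.7 and 389.8 on the other arrays (departure 1.11 ± 0.23, limma adjusted p = 0.0747). The match of ERF5, an activator in Arabidopsis (GRMZM2G057386), was lowest at ZT8 with 39.2 and highest at ZT44 with 110.6, close to the 103.0 at ZT0, and its curve had a difference of 1.06 ± 0.31 in log2 (unadjusted p = 0.014, limma adjusted p = 0.354).

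A pair of genes named in rice as ethylene-responsive element-binding proteins had their lowest levels at ZT0. GRMZM2G026050 gave 3.1 at ZT0, 136.7 at ZT8 and between 34.1 and 98.9 on the other arrays, a departure at ZT0 of -3.75 ± 0.59 in log2 (limma adjusted p = 0.0267). That call rests on a signal close to 0: with 32 added to all signals the departure was -1.08 and the adjusted p 0.286. GRMZM2G004709 gave 172.6 at ZT0, 949.7 at ZT8 and between 366.7 and 567.7 on the others (departure -1.22 ± 0.35, limma adjusted p = 0.181). ZT0 and ZT8 thus marked opposite ends for these genes, and ZT8 also held the lowest level of ACO31, ERF4 and ERF5. Among all probe sets tested, 13.7% were lowest and 13.7% highest at ZT8. The pattern was not particular to hormone genes: the leaf gene for rubisco activase (GRMZM2G162200) was highest at ZT0 with 5526 and lowest at ZT8 with 2673. The other leaf photosynthesis probe sets tested did not have both of these extremes.

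In GA synthesis, 7 probe sets were matched and 6 passed the filter. Of these, 0 passed the 24-h test after adjustment and 4 did before it, against 11.1% of all probe sets. The 4 include an1, d3 and the oxidoreductase GRMZM2G147882, which the study had listed as cycling on the same hybridizations. Their count is therefore no independent evidence of a rhythm. The ent-kaurene oxidase match (GRMZM2G059308), which acts between an1 and d3, was steady at 312.1 to 373.5, with a 24-h difference of 0.12 ± 0.12. The second ent-copalyl diphosphate synthase gene, an2 (GRMZM2G044481), whose product feeds defence compounds, gave 14.9 to 30.0 and did not pass the filter. Genes for GA signalling were not matched to any probe set by the list used.

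Among the dioxygenases, GRMZM2G147882 is an oxidoreductase that the study's pathway annotation places in GA synthesis. It gave 614.4 at ZT0 and 133.7 at ZT8, with 222.8 to 416.1 on the other arrays (24-h difference 1.13 ± 0.35, peak at 22 h, limma adjusted p = 0.380; ZT0 departure 1.26 ± 0.36, adjusted p = 0.174). Its extremes at ZT0 and ZT8 were those of ACO31 and also of the leaf gene for rubisco activase. GRMZM2G121700, named as a GA 20-oxidase only by its rice match, was highest at ZT8 with 792.2 and lowest at ZT20 with 224.7 (24-h difference 0.78 ± 0.25, peak at 9.72 h, limma adjusted p = 0.40). On the second day GRMZM2G121700 gave 388.7 at ZT32, and its linear change was -0.69 ± 0.19 per 24 h in log2 (limma adjusted p = 0.061). GRMZM2G127232, of the same rice name, lay between 13.2 at ZT0 and 92.1 at ZT20.

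Over the course, the highest level was at least 2-fold the lowest, with signals under 50 counted as 50, in 1 of the 6 genes, against 14.3% of all probe sets and 22.1% of those with a median signal of 50 to 150. That gene was ACS6, at 2.90-fold. ACO31 reached 1.96-fold, and 2.74-fold without the floor. an1, etr2, d3 and MTO3 reached 1.67-, 1.60-, 1.52- and 1.32-fold, against a median of 1.47-fold over all probe sets. Over probe sets with a median signal of 50 to 150, as an1, etr2 and d3 have, the median was 1.64-fold.

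At 4 times of day an array was held on both days, so that the second day could be set against the first, array by array with no test. For ACS6 the second day gave 109.8, 111.7, 54.0 and 79.9 at ZT24, ZT28, ZT32 and ZT44, against 156.8, 74.8, 70.7 and 91.9 at ZT0, ZT4, ZT8 and ZT20 of the first day. Its second day was lower at dawn, higher at ZT28 and lower at the other times. d3 was lower on the second day at all 4 times, by -0.26, -0.17, -0.16 and -0.34 in log2, and an1 was higher at 3 of them, by 0.31, 0.36 and 0.13 at ZT24, ZT32 and ZT44.

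Past 1.5-fold in either direction was 1 of the 24 ratios, ACO31 at ZT32 over ZT8, with 59.4 on the second day and 35.7 on the first (1.66-fold). For that pair of arrays 10.2% of all probe sets passed 1.5-fold, and 13.1%, 11.1% and 2.25% did for ZT24 over ZT0, ZT28 over ZT4 and ZT44 over ZT20. The ACO31 ratio rests on a signal below 50, and with signals under 50 counted as 50 it was 1.19-fold. ACS6 at ZT28 over ZT4 came next at 1.49-fold, and without normalization it was 1.54-fold, which made 2 of the 24 ratios past 1.5-fold. Over the 4 times together, in a limma fit with time of day as a block, 0 of the 6 genes differed between the days at an adjusted p of 0.05, as did 0% of all probe sets, and 0 did before adjustment, against 19.5%. The second day minus the first was -0.23 ± 0.10 in log2 for d3 (SE, unadjusted p = 0.061, limma adjusted p = 0.278) and 0.17 ± 0.13 for an1 (adjusted p = 0.472). That fit and the floor of 50 on these ratios were chosen after seeing the data. The second dawn was lower than the first for d3, ACS6, ACO31 and etr2 and higher for an1 and MTO3. The first dawn followed darkness and the second followed light.

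**Figure D4:**
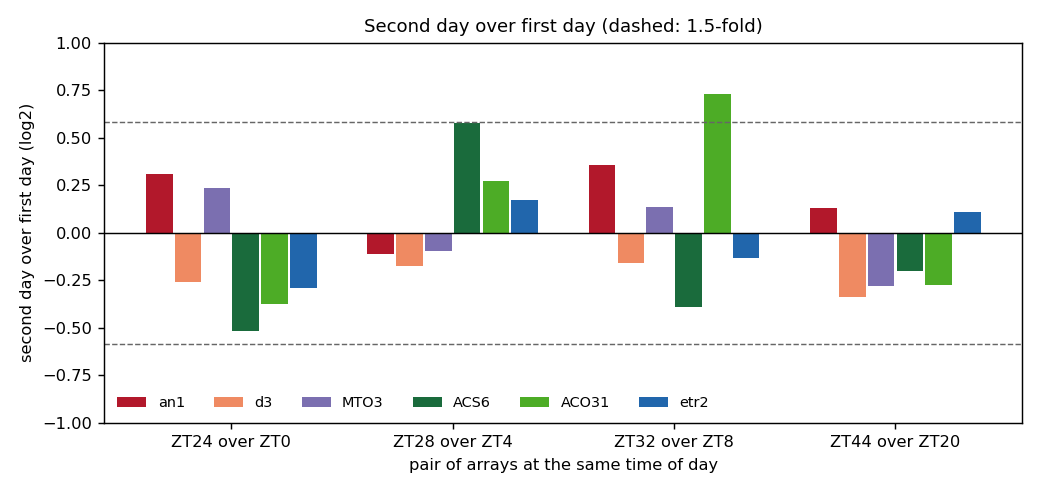
Second day over first day in log2 for the 6 genes at the 4 times of day held on both days, 1 array on each side, with 1.5-fold in either direction dashed. ACO31 at ZT32 over ZT8 (0.73) is the bar past the line, and all 4 bars of d3 are below 0.

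The likeness of the profiles is given as Pearson's r of log2 signals over the 10 arrays, as a description, since all genes share the same arrays. ACS6 had r = 0.77 with etr2 and 0.73 with ACO31, and ACO31 had r = 0.58 with etr2. Without ZT0 these values were 0.51, 0.49 and 0.13 over 9 arrays, so the likeness of ACO31 and etr2 lay mainly in their ZT0 levels. an1 ran against etr2 with r = -0.82, and -0.79 without ZT0. an1 and d3, which act in the same pathway, had r = -0.62, and -0.67 without ZT0.

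**Figure D5:**
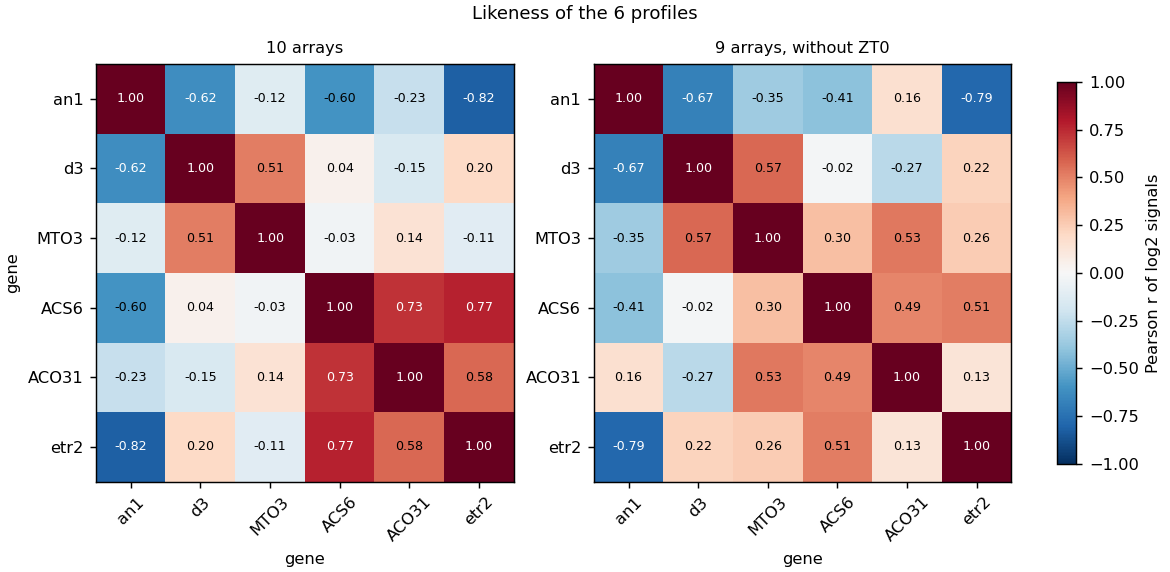
Pearson's r of log2 signals between the 6 genes over the 10 arrays (left) and over 9 arrays without ZT0 (right). ACS6, ACO31 and etr2 form a block with r of 0.58 to 0.77 on the left, which is 0.13 to 0.51 on the right, and an1 runs against etr2 in both.

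The named probe sets with the closest profiles were sought among those with a range of at least 1.5-fold. For each gene 1332 or 1333 probe sets were searched over 10 arrays. How high r reaches by chance in a search of this size was not tested. For an1 they were the aquaporin gene NIP2-2 (r = 0.90), which was highest at ZT4, and a match of the kinase CIPK1 (r = 0.86). For d3 they were a SEC14-family gene (r = 0.82) and yab10 (r = 0.75), and for MTO3 a plastid fibrillin-family gene (r = 0.84) and a dehydration-responsive-related gene (r = 0.81). A senescence-associated-related gene (GRMZM2G322817) was the closest to ACO31 (r = 0.94) and second to ACS6 (r = 0.85), with 794.3 at ZT0 and 346.9 at ZT8. The closest to ACS6 was a match of NFXL1 (r = 0.93), the second for ACO31 was glu2, a beta-glucosidase gene (r = 0.92), and those for etr2 were matches of CSLD3 (r = 0.87) and of the protease FTSH11 (r = 0.85). All of the 5 genes closest to ACS6, ACO31 and etr2 were highest at ZT0, against 19% of all probe sets tested. They were chosen for likeness to profiles that are highest at ZT0, so this follows largely from the choice.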

How the data were processed

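Per the submitters' processing notes, the authors made the values with MAS5, and its version is not given in the sources used here. The authors deposited signal intensities on a linear scale, 1 column per array, for 17734 probe sets, of which 113 controls were left out. RMA values that the study analysed were not used here. Values under 1 (2968) were set to 1 and log2 was taken. Array medians differed by 0.19 in log2, so the arrays were quantile normalized. Probe sets that reached a signal of 50 on 3 or more arrays were fitted in limma 3.58.1 (R 4.3.3) with lmFit and eBayes with an intensity trend, leaving 6 residual degrees of freedom. No time point was replicated, so p-values measure scatter around the model, and 10 arrays limit the precision. Cosine and sine of 24 h were tested together by a moderated F-test. The linear change, night minus day, the departure of an array and, over 4 times of day, the second day minus the first were tested by moderated t, all adjusted by Benjamini-Hochberg over 12512 probe sets at 0.05. The steps were tested on simulated data, in which the added 24-h differences were all larger than the fitted differences of the 6 genes. Whether curves as small as theirs would be called was not tested.

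Groups came from the time labels. Gene names came from the array's annotation, which gives 1 gene for 1452 probe sets, several for 1 and none for 16168 (1377 were matched to current records), and from the study's functional annotation, held for 1744 probe sets. Named are the 6 genes, up to 4 others of each pathway list with the lowest unadjusted p of the 24-h curve, all that share a step with the 6, and the 2 named probe sets most like each. The list of ethylene synthesis left out 3 entries that share only a symbol with it. The genes and lists were chosen with earlier results of these data known. Alternatives were deposited values, median centring, a pseudocount of 32, no filter or a filter of 100, no linear change, an offset between days, robust variances, each array left out, ZT24 to ZT44 only, and periods of 20, 22, 26 and 28 h. Tables and plots used Python 3.11.15, numpy 2.4.6, pandas 2.3.3 and matplotlib 3.10.9. No sequences were used here.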

Additional observations from a re-analysis of the deposited data

Results flagged for a closer look

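Over the 10 arrays, the highest and lowest array of each of 20 probe sets of the GA and ethylene lists were compared with the rest by the gap to the nearest array as a share of the whole range in log2, against Dixon's critical value for 10 samples. Chance alone passes about 1 in 20 groups where values are independent and normal, and the share over all probe sets tested was not computed. ZT0 was the highest array for 19% and the lowest for 20.1% of all probe sets tested. The 6 genes did not pass. ZT0 was far above the rest for the ACC oxidase GRMZM2G166639 (share 0.634, 1021 against 369.4 to 536.1) and for the ERF4 match GRMZM2G438202 (share 0.50, 698.1 against 217.7 to 389.8). ZT0 was far below the rest for GRMZM2G026050 (share 0.635, 3.1 against 34.1 to 136.7). This last share rests on a signal close to 0. With 32 added to all signals the ZT0 departure of that gene was -1.08 (limma adjusted p = 0.286). The part of the single ZT0 array in these values was not tested.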

How the results depend on the processing

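The number of arrays, with 1 per time point and none analysed between ZT8 and ZT20, limits what can be called. No paired analysis was possible by replicate number because each time point has 1 array with the same number; the days were paired by time of day instead, in a fit chosen after seeing the data. The planned promoter motif search and tests of GA signalling genes were not run. Over 426 tested values of the 6 genes under alternatives, 0 had a limma adjusted p of at most 0.05. The fitted 24-h difference moved by over 1.5 times for ACO31, from 0.76 to 0.36 without ZT8, 0.35 and 0.44 with periods of 20 and 22 h and 0.48 with a pseudocount of 32, for d3, from 0.53 to 0.34 with no linear change and 0.34 with a period of 20 h, and for etr2, from 0.34 to 0.21 without ZT0. The count of 24-h calls was 1 with an offset between the days and 42 with ZT24 to ZT44 only, in place of 0; the cause was not tested. Linear calls, 820 with all arrays, ranged from 2 (without ZT28) to 2331 (without ZT20) with an array left out. Calls for the second day minus the first were 11 with deposited values and 1 with median centring in place of 0, and the etr2 difference turned from -0.037 to 0.0035 with deposited values. Calls for ZT20 were 1 with median centring in place of 0. The linear rate turned to -0.063 (MTO3) with deposited values, to -0.12 (MTO3) and -0.040 (ACO31) with median centring, and to -0.0068 (ACO31) with a pseudocount of 32. With an array left out it ranged from -0.39 to 0.057 for ACS6, from -0.084 to 0.073 for MTO3, from -0.22 to 0.29 for ACO31 and from -0.16 to 0.053 for etr2, with the ends set by leaving out ZT28 and ZT0, ZT0 and ZT44, ZT8 and ZT0, and ZT20 and ZT0. Night minus day turned to -0.035 (MTO3) and 0.040 (etr2) with deposited values, to -0.11 (MTO3) with median centring, and to 0.17 (ACS6) and 0.19 (etr2) without the dawn and dusk arrays. With an array left out it ranged from -0.26 to 0.050 for ACS6, from -0.020 to 0.11 for MTO3 and from -0.056 to 0.081 for etr2.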
